A study of Mus musculus with 20 samples.

Results

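The genes described here are Foxp3, Cd4, Il2ra, Ikzf2, Tnfrsf4, Tnfrsf18, Capg and Il10, which are linked to CD4 T cells and above all to regulatory T cells. These 8 of the 17097 genes measured were chosen by name, with earlier results of these data known. Each was read from the probe set listed with that gene alone that had the highest mean over all 20 arrays. RNA came from T cells carrying CD44 and CD8, purified from lungs of mice bearing 4T1 tumours, a mouse mammary carcinoma line. The labels name the intranasal route of treatment but do not give the route of a-CD4. In all, 4 arrays came from the group SD-101+anti-PD-1+a-CD4, 5 from SD-101+anti-PD-1, 6 from SD-101 and 5 from Saline-CTRL. All groups shared the tumour and the purification, and SD-101 is a TLR9 ligand, TLR9 being an endosomal receptor for microbial DNA. Anti-PD-1 is an antibody that blocks PD-1, which restrains T cells, and the labels give no further description of a-CD4. The labels also give no strain, age, dose or time, and leave it unsaid if each numbered sample is another animal, so p-values here reflect sample-to-sample spread that may be technical.

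CD4 is the coreceptor of helper and regulatory T cells and is not normally found on mature CD8 T cells. Foxp3 is the transcription factor that sets the regulatory T cell programme, and such cells also carry much CD25, the IL-2 receptor chain encoded by Il2ra, together with the TNF receptor family members OX40 (Tnfrsf4) and GITR (Tnfrsf18). Activated CD8 T cells can carry CD25, OX40 and GITR as well, and Foxp3 has been seen in some CD8 T cells.

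Promoter sequence is shown for Foxp3, which rose with a-CD4 in 2 of 3 comparisons, for the neighbouring receptor genes Tnfrsf4 and Tnfrsf18, and for Il2ra, whose mean was lower with a-CD4. The sequences are RefSeq's on GRCm38.p6, each running from 250 bases before to 50 bases after an annotated start, on the plus strand. The capitals mark matches, on either strand, to the STAT letters TTCNNNGAA, the NFAT letters TGGAAA or the kappaB motif. The Foxp3 sequence lies at chrX:7580233-7580532, and its capitals hold a STAT match that overlaps an NFAT match. Tnfrsf4 at chr4:156013445-156013744 holds 1 NFAT match, Tnfrsf18 at chr4:156026072-156026371 holds 1 STAT match, and Il2ra at chr2:11642542-11642841 holds 2 overlapping kappaB matches.
Foxp3: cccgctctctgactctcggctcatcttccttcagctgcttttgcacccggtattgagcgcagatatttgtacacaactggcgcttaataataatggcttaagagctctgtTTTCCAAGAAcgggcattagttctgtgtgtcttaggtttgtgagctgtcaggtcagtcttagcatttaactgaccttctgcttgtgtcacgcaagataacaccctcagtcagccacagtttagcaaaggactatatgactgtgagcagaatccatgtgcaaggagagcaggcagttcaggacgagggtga
Tnfrsf4: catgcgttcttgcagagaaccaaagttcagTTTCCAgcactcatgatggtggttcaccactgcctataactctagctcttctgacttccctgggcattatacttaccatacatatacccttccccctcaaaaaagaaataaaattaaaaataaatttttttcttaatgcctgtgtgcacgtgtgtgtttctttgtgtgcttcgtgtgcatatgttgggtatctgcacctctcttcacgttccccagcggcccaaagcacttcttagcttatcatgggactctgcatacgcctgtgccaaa
Tnfrsf18: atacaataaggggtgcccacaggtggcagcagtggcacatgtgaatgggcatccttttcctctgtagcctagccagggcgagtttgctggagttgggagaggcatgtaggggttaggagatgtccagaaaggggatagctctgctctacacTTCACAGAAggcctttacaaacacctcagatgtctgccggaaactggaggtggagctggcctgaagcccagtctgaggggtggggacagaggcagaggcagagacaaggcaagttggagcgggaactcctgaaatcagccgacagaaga
Il2ra: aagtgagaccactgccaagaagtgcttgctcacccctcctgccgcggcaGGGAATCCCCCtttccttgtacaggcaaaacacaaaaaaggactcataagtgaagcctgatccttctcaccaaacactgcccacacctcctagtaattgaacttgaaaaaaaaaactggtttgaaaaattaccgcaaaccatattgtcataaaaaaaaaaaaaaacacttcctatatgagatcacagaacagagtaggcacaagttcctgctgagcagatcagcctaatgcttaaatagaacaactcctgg
Of 32851 promoters of this length, 8.3% hold the STAT letters, 21.4% the NFAT letters and 8.46% the kappaB motif. No match to the AP-1 letters TGANTCA or the forkhead letters GTAAACA, held by 7.81% and 3.65% of promoters, lies in any of the 6 windows listed for 5 of the 8 genes. The other Foxp3 start and the Capg start, not printed, hold no match to any of these motifs. Cd4, Ikzf2 and Il10 have no window in the table used. A match describes letters in the window and is not a measured binding site.

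Levels differed widely between the 8 genes. On the deposited log2 scale, mean values over the 20 arrays were 8.85 for Capg, 8.37 for Tnfrsf18, 7.39 for Ikzf2, 5.89 for Tnfrsf4, 4.89 for Il2ra, 3.70 for Foxp3, 3.13 for Cd4 and 3.04 for Il10. These are values of different probe sets and give no order of transcript abundance between genes. Probe sets of olfactory, vomeronasal and taste receptor genes, which T cells are not known to use, served as a background level, the 95th percentile of 86 such probe sets being 3.0. Foxp3 lay above it on 20 of 20 arrays, whereas Cd4 did so on 15 and Il10 on 6. The Il10 arrays above it were 3 of 4 with a-CD4, 1 of 5 of SD-101+anti-PD-1, 2 of 6 of SD-101 and 0 of 5 of Saline-CTRL. The purified population carried the genes of its sort, with Cd8a at 9.45 to 11.66, Cd8b1 at 9.68 to 11.43, Cd3e at 7.28 to 9.05 and Cd44 at 8.85 to 10.41, while the lung epithelial gene Sftpc averaged 13.14. None of these 4 sort genes was called in any of the 6 comparisons of groups.

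**Figure D1:**
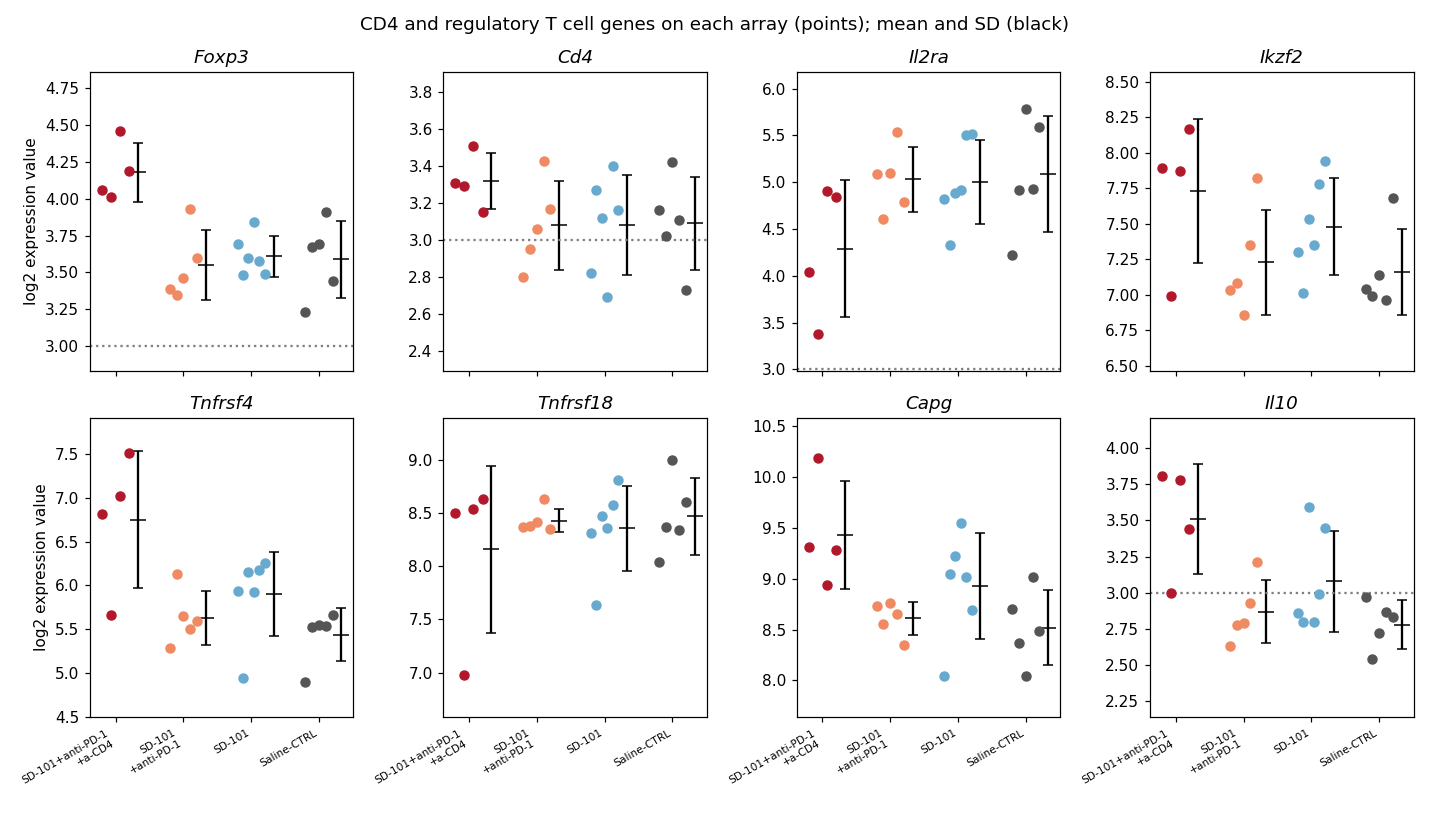
Deposited log2 value of each of the 8 genes (y axes) on each array (points), by group (x axes), with group mean and SD in black and the background level of 3.0 dotted where it falls in the range. All 4 Foxp3 points of the SD-101+anti-PD-1+a-CD4 group, 4.01 to 4.46, lie above the 16 others, of which the highest is 3.93.

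1 array stood apart in its T cell genes before any comparison. The T cell identity score, the mean log2 value of 13 of 17 listed T cell genes, was 8.32 on replicate 2 of the SD-101+anti-PD-1+a-CD4 group, against 10.02 to 10.27 on the other 3 arrays of that group. It was 9.54 to 10.04 in SD-101+anti-PD-1, 9.26 to 10.19 in SD-101 and 8.83 to 10.23 in Saline-CTRL, where replicate 1 was lowest. Results that rest on these arrays are given with and without them. By scores of other cell types, further arrays stood apart. The neutrophil score was 9.49 on replicate 1 of Saline-CTRL, against 3.06 to 3.42 on the others of that group. It was 8.65 on replicate 1 of the SD-101+anti-PD-1+a-CD4 group, against 4.02 to 5.73 on the others. The macrophage and monocyte score was 7.28 on replicate 4 of SD-101, against 4.83 to 5.95 on the others.

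In the comparison of the SD-101+anti-PD-1+a-CD4 group with SD-101+anti-PD-1, which differ in a-CD4, Foxp3 was higher with a-CD4 and passed the test, and no other of the 8 genes did. Tnfrsf4, Capg and Il10 had higher means with a-CD4, Il2ra had a lower one, and Cd4 differed by less than the spread between arrays. Of all genes, 2.13% were called in this comparison and 0.948% rose, against 1 of these 8. Calls come from limma fitted to all 4 groups, with a Benjamini-Hochberg adjusted p under 0.05 over all 17097 genes.

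Foxp3 had log2 values of 4.06, 4.01, 4.46 and 4.19 in the SD-101+anti-PD-1+a-CD4 group, against 3.39, 3.35, 3.46, 3.93 and 3.60 in SD-101+anti-PD-1. The groups did not overlap, which held for 3.92% of all genes in this direction and for Foxp3 and Capg among the 8. The log2 difference was 0.63 with a standard error of 0.14 and a 95% interval of 0.34 to 0.93, 1.55-fold on the linear scale, and the limma adjusted p was 0.0265. An exact permutation test gave p = 0.0159, where the smallest possible was 0.00794, and over the 48 exact tests made here its adjusted value was 0.109.

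The remaining groups placed Foxp3 where SD-101+anti-PD-1 did. Foxp3 had a lowest value of 3.48, a median of 3.59 and a highest of 3.84 in the 6 arrays of SD-101, and 3.23, 3.67, 3.69, 3.91 and 3.44 in Saline-CTRL. All 4 arrays with a-CD4 thus lay above all 16 without it, with 4.01 against 3.93 at the nearest, and 1.08% of all genes did the same. Such a gap is narrow beside the SD of 0.14 to 0.26 within groups. The Foxp3 call against SD-101+anti-PD-1 depended on single arrays: it held without replicate 4 or 5 of SD-101+anti-PD-1 and was lost, at adjusted p up to 0.0813, when any 1 of the 7 other arrays was left out, with differences of 0.54 to 0.73. Without the array of low T cell score the difference was 0.69 with adjusted p 0.0568, and without both arrays of low score 0.69 with adjusted p 0.0439. In bulk RNA, more Foxp3-bearing cells and more Foxp3 RNA per cell cannot be told apart. Foxp3 values lay between the 42.5 and 58.7 percentiles of all probe sets of their array. The part of nonspecific probe signal in the Foxp3 difference was not tested.

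Ikzf2, which encodes Helios, an Ikaros family factor common in regulatory T cells, was well above background in every group. Its values were 7.89, 6.99, 7.87 and 8.17 in the SD-101+anti-PD-1+a-CD4 group, against 7.03, 7.08, 6.86, 7.35 and 7.82 in SD-101+anti-PD-1. The groups overlapped, since replicate 2 with a-CD4 was as low as most arrays without it. The log2 difference was 0.50 with a standard error of 0.24 and limma's adjusted p was 0.283, and without that replicate it was 0.75 with adjusted p 0.155. Ikzf2 had a lowest value of 7.01, a median of 7.44 and a highest of 7.94 in SD-101, and 7.04, 6.99, 7.14, 6.96 and 7.68 in Saline-CTRL. Its other probe set averaged 3.15, near background, and differed by 0.34.

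Cd4 lay near background in all groups. It had log2 values of 3.31, 3.29, 3.51 and 3.15 in the SD-101+anti-PD-1+a-CD4 group and 2.80, 2.95, 3.06, 3.43 and 3.17 in SD-101+anti-PD-1, and the groups overlapped. The difference was 0.23, with a 95% interval of -0.09 to 0.56 and a limma adjusted p of 0.478. Cd4 ran from 2.69 to 3.40 in SD-101 with a median of 3.14, and from 2.73 to 3.42 in Saline-CTRL. The other Cd4 probe set averaged 2.71, below the background level, and differed by 0.14.

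Il2ra, the inducible chain of the IL-2 receptor, had the most negative difference of the 8 genes. Its values were 4.04, 3.38, 4.91 and 4.84 in the SD-101+anti-PD-1+a-CD4 group, against 5.09, 4.61, 5.10, 5.54 and 4.79 in SD-101+anti-PD-1. Replicates 1 and 2 with a-CD4 lay below every array of SD-101+anti-PD-1, and replicates 3 and 4 lay among them. The log2 difference was -0.73, with a 95% interval of -1.45 to -0.02 and a limma adjusted p of 0.263, and it was -0.43 without replicate 2. The other Il2ra probe set read 3.24, 2.91, 2.93 and 3.44 in the SD-101+anti-PD-1+a-CD4 group, against 3.92, 3.49, 3.81, 3.62 and 3.93 in SD-101+anti-PD-1. There the groups did not overlap, as held for 4.53% of all genes in this direction, and the difference was -0.62 with a limma adjusted p of 0.183. The chosen Il2ra probe set had a lowest value of 4.33, a median of 4.90 and a highest of 5.52 in SD-101, and 4.22, 4.92, 5.78, 4.93 and 5.59 in Saline-CTRL.

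The TNF receptor genes Tnfrsf4 and Tnfrsf18 are neighbours on chromosome 4, with 2 annotated genes between them, and their products OX40 and GITR give costimulatory signals. Tnfrsf4 had log2 values of 6.81, 5.66, 7.02 and 7.51 in the SD-101+anti-PD-1+a-CD4 group, against 5.29, 6.13, 5.65, 5.50 and 5.59 in SD-101+anti-PD-1. Of the arrays with a-CD4, 3 lay above every array of SD-101+anti-PD-1, and replicate 2 lay among them. The difference was 1.12 with a standard error of 0.31, 2.17-fold, the highest of the 8 genes, and limma's adjusted p was 0.0632. Without replicate 2 of the SD-101+anti-PD-1+a-CD4 group it was 1.48 with an adjusted p of 0.0246, and this was the only array whose removal gave a call. Tnfrsf4 had a lowest value of 4.95, a median of 6.04 and a highest of 6.25 in SD-101, and 4.90, 5.53, 5.55, 5.54 and 5.66 in Saline-CTRL.

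Tnfrsf18 was high in every group, at 8.5, 6.98, 8.54 and 8.63 in the SD-101+anti-PD-1+a-CD4 group and 8.37, 8.38, 8.42, 8.63 and 8.35 in SD-101+anti-PD-1. Apart from the value of 6.98 on replicate 2, the arrays of both groups fell in the same narrow band. The log2 difference was -0.27, with a 95% interval of -0.87 to 0.33 and a limma adjusted p of 0.7, and its sign turned without that array, at 0.13. Tnfrsf18 had a lowest value of 7.64, a median of 8.42 and a highest of 8.81 in SD-101, and 8.04, 8.37, 9.0, 8.34 and 8.61 in Saline-CTRL.

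Il10 encodes an anti-inflammatory cytokine that regulatory T cells and some effector T cells make. Its values were 3.81, 3.0, 3.78 and 3.44 in the SD-101+anti-PD-1+a-CD4 group, against 2.63, 2.78, 2.79, 2.93 and 3.21 in SD-101+anti-PD-1. Again 3 arrays with a-CD4 lay above every array of SD-101+anti-PD-1, with replicate 2 at the background level. The log2 difference of the measured values was 0.64, with a 95% interval of 0.25 to 1.03 and a limma adjusted p of 0.0802. Only 1 of the 5 SD-101+anti-PD-1 arrays lay above the background level, and with the others set to that level the difference was 0.46. Il10 had a lowest value of 2.80, a median of 2.92 and a highest of 3.59 in SD-101, and 2.97, 2.54, 2.72, 2.87 and 2.83 in Saline-CTRL.

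Capg, a gelsolin family protein that caps actin filaments and is not a lineage marker, had values of 9.31, 10.18, 8.94 and 9.28 in the SD-101+anti-PD-1+a-CD4 group, against 8.73, 8.55, 8.76, 8.65 and 8.35 in SD-101+anti-PD-1. The groups did not overlap, and replicate 2 was the highest of all 20 arrays. The difference was 0.82, with a 95% interval of 0.26 to 1.38, an exact permutation p of 0.00794, the smallest possible, and a limma adjusted p of 0.112. It was 0.57 with an adjusted p of 0.386 without replicate 2. Capg had a lowest value of 8.04, a median of 9.04 and a highest of 9.55 in SD-101, and 8.70, 8.37, 8.04, 9.02 and 8.49 in Saline-CTRL.

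Over the 8 genes the median log2 difference between SD-101+anti-PD-1+a-CD4 and SD-101+anti-PD-1 was 0.56, with 6 above 0, against a median of 0.002 and 50.5% above 0 over all genes. At an unadjusted p under 0.05 there were 5 of the 8 by limma, against 17.9% of all genes, and 4 by the exact test. The 8 genes were chosen with earlier results of these data known, so these shares are not an independent test of them.

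**Figure D2:**
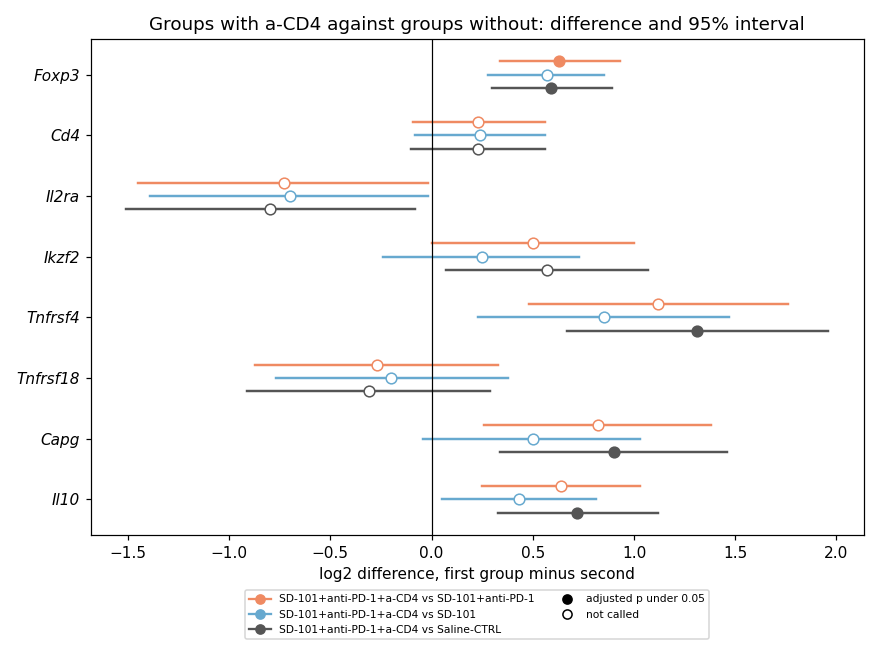
Log2 difference (x axis) of each gene (y axis) in the 3 comparisons of the SD-101+anti-PD-1+a-CD4 group with a group without a-CD4, with 95% intervals as bars and filled points where limma's adjusted p was under 0.05. Foxp3 lies between 0.57 and 0.63 in all 3, and Il2ra between -0.80 and -0.70; the comparisons share the 4 arrays with a-CD4.

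The comparisons of the SD-101+anti-PD-1+a-CD4 group with SD-101 and with Saline-CTRL use the same 4 arrays as the one above, so their values are given side by side and not as separate support. Against Saline-CTRL, Foxp3, Tnfrsf4, Il10 and Capg rose, 4 of 8 where 4.09% of all genes rose and 7.12% were called. Foxp3 rose by 0.59 with limma adjusted p 0.0156, Tnfrsf4 by 1.31 with adjusted p 0.0135, and Capg by 0.90 with adjusted p 0.047. Il10 was at or below the background level on all 5 Saline-CTRL arrays. With Saline-CTRL set to that level, the SD-101+anti-PD-1+a-CD4 mean of 3.51 was 1.42-fold higher, a point value and not a lower bound. The measured Saline-CTRL mean was 2.79. The measured Il10 difference was 0.72 on the log2 scale, with a confidence interval of 0.33 to 1.12 and a limma adjusted p of 0.0244. Foxp3, Tnfrsf4 and Il10 did not overlap between these groups, as held for 4.84% of all genes in this direction. Ikzf2 differed by 0.57 with adjusted p 0.173 (0.82 with 0.0393, a call, without replicate 2 of the SD-101+anti-PD-1+a-CD4 group), Cd4 by 0.23 with adjusted p 0.443, Tnfrsf18 by -0.31 with adjusted p 0.602 and Il2ra by -0.80 with adjusted p 0.182. The median was 0.58, against 0.037 over all genes. The endothelial and dendritic cell scores, mean log2 values of 14 and 12 genes, did not overlap between these groups. They ran from 6.65 to 7.92 and from 5.66 to 6.0 in the SD-101+anti-PD-1+a-CD4 group. In Saline-CTRL they ran from 8.01 to 9.88 and from 4.88 to 5.62. Of the 14 endothelial genes 13 fell, and of the 12 dendritic cell genes 0 were called.

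These calls differed in how far they rested on 1 array. When each of the 9 arrays was left out in turn, the Foxp3 and Tnfrsf4 calls against Saline-CTRL held in 8, the Il10 call in 5 and the Capg call in 2. The Foxp3 call was lost without replicate 3 of the SD-101+anti-PD-1+a-CD4 group (adjusted p 0.0565), and the Tnfrsf4 call without its replicate 4 (adjusted p 0.0539). The Il10 call was lost without replicate 1 or 3 of the SD-101+anti-PD-1+a-CD4 group or replicate 2 or 3 of Saline-CTRL, and the Capg call held only without replicate 3 of the SD-101+anti-PD-1+a-CD4 group or replicate 4 of Saline-CTRL. Without both arrays of low T cell score, Foxp3 differed by 0.56 (limma adjusted p 0.0352), Tnfrsf4 by 1.54 (0.00298), Il10 by 0.94 in measured values (0.00905) and Capg by 0.70 (0.159).

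Against SD-101, 0 of the 8 genes were called by limma, while 0.983% of all genes were. At an unadjusted p under 0.05 there were 4 by limma, against 16.6% of all genes, and 1, Foxp3, by the exact permutation test (p = 0.00476, the smallest possible). Foxp3 did not overlap between these groups, as held for 3% of all genes in this direction, and differed by 0.57 with a 95% interval of 0.28 to 0.85 and a limma adjusted p of 0.0518. Tnfrsf4 differed by 0.85 with adjusted p 0.156, Capg by 0.50 with 0.34, Il10 by 0.43 with 0.239, Ikzf2 by 0.25 with 0.632, Cd4 by 0.24 with 0.443, Tnfrsf18 by -0.20 with 0.766 and Il2ra by -0.70 with 0.286. The median was 0.34, against 0.027 over all genes. For Il10, replicates 3 and 6 of SD-101, at 3.59 and 3.45, lay among the arrays with a-CD4. The B and plasma cell and the mast cell and basophil scores, of 10 genes each, did not overlap between these groups. They ran from 4.53 to 5.47 and from 4.29 to 4.54 in the SD-101+anti-PD-1+a-CD4 group. In SD-101 they ran from 5.70 to 6.96 and from 4.64 to 5.38. Of their genes, 1 and 2 fell. Of 14 endothelial genes, 14 were lower at an unadjusted p under 0.05 by limma, and 0 were called. The part of such shifts in the 8 genes was not tested.

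Among the groups without a-CD4 the 8 genes showed no called difference. In SD-101+anti-PD-1 against SD-101, 4.77% of all genes were called and 0 of the 8, which differed by -0.32 for Capg to 0.07 for Tnfrsf18. In SD-101+anti-PD-1 against Saline-CTRL, 5.63% of all genes were called and 0 of the 8, which differed by -0.06 for Il2ra to 0.19 for Tnfrsf4. In SD-101 against Saline-CTRL, 0.333% were called and 0 of the 8, which differed by -0.11 for Tnfrsf18 to 0.46 for Tnfrsf4. In each of these 3 comparisons 0 of the 8 had an unadjusted p under 0.05 by limma or by the exact permutation test, against 18.3%, 18.6% and 8.27% of all genes by limma. The widest 95% intervals there were those of Il2ra, -0.61 to 0.67 in the first, -0.73 to 0.61 in the second and -0.73 to 0.55 in the third.

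Arrays of 1 group differed from each other in ways that several of the 8 genes shared. In deviations from the group means over the 20 arrays, the T cell identity score went with Tnfrsf18 (Pearson r 0.89, Spearman rho 0.79), Il2ra (0.81 and 0.67), Tnfrsf4 (0.79 and 0.60) and Ikzf2 (0.77 and 0.75). Permutation p-values for Pearson's r, drawn within groups, were 0.00116, 0.00021, 0.00383 and 0.00032. Adjusted over 8 genes, they were 0.00309, 0.00128, 0.00766 and 0.00128 for r and 0.00728, 0.00728, 0.0176 and 0.00688 for rho. Without the 2 arrays farthest from the median score r was 0.77, 0.69, 0.59 and 0.73. Capg ran the other way, with r -0.63 and rho -0.69 (permutation p adjusted 0.0286 and 0.00872) and r -0.49 without those 2 arrays. Foxp3 had r 0.34 and rho 0.30, Il10 0.47 and 0.45, and Cd4 -0.04 and 0.06, with adjusted permutation p of 0.23 and 0.277, 0.109 and 0.0681, and 0.844 and 0.788.

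Between the members themselves, 28 pairs were compared in the same way, and 7 had an adjusted permutation p under 0.05 for Pearson's r, all of them among Il2ra, Ikzf2, Tnfrsf4, Tnfrsf18 and Il10. The highest were Il2ra with Tnfrsf18 (r 0.85, rho 0.83, permutation p 1e-05, the smallest that 100000 permutations can give, and 0.00028 after adjustment for each, and r 0.82 without the 2 arrays farthest in Il2ra) and Tnfrsf4 with Tnfrsf18 (r 0.85, rho 0.69, adjusted permutation p 0.0154 and 0.0181, and r 0.62 without the 2 arrays farthest in Tnfrsf4). Foxp3 had no pair with an adjusted p under 0.05, the nearest being Il2ra at r 0.45 and rho 0.50 (adjusted permutation p 0.206 and 0.16). The share of all genes or gene pairs that would pass in the same way was not computed. The correlations here and with the T cell identity score are therefore not read as particular to these genes.

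**Figure D3:**
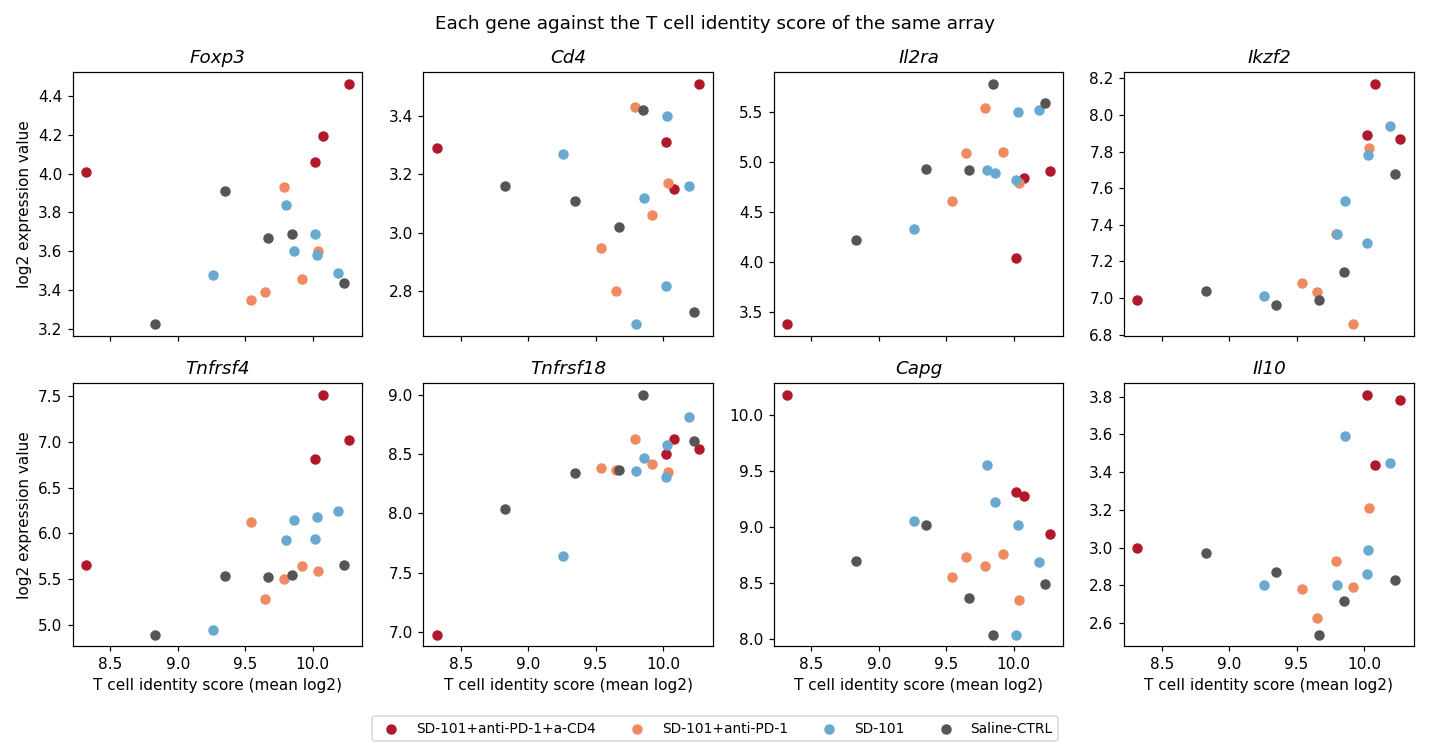
Deposited log2 value of each gene (y axes) against the T cell identity score of the same array (x axes, mean log2 of 13 genes), coloured by group. Replicate 2 of the SD-101+anti-PD-1+a-CD4 group, at a score of 8.32, has the lowest Tnfrsf18 and Il2ra values and the highest Capg value.

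Of 11 cell type scores, those of endothelial, lung epithelial, and B and plasma cells did not overlap between the SD-101+anti-PD-1+a-CD4 group and SD-101+anti-PD-1. The endothelial score (14 of 14) ran from 6.65 to 7.92 in the SD-101+anti-PD-1+a-CD4 group, against 5.61 to 6.62 in SD-101+anti-PD-1. The lung epithelial score (15 of 16) ran from 8.69 to 9.84 in the SD-101+anti-PD-1+a-CD4 group and between 10.28 and 10.74 in SD-101+anti-PD-1. The B and plasma cell score (10 of 13) ran from 4.53 to 5.47 in the SD-101+anti-PD-1+a-CD4 group, against 5.51 to 6.04 in SD-101+anti-PD-1. The other scores overlapped, among them the neutrophil score (8 of 10), at 4.02 to 8.65 in the SD-101+anti-PD-1+a-CD4 group against 3.22 to 5.77 in SD-101+anti-PD-1, and the macrophage and monocyte score (19 of 22), at 4.47 to 5.54 in the SD-101+anti-PD-1+a-CD4 group against 4.59 to 4.95 in SD-101+anti-PD-1. On average, 8 of 8 neutrophil, 14 of 14 endothelial, 15 of 15 lung epithelial, 8 of 10 B and plasma cell and 18 of 19 macrophage genes lay above the background level. Of all 11 cell type lists, 2 genes were called in this comparison, in which 2.13% of all genes were called. They were 1 of 15 lung epithelial genes and 1 of 12 fibroblast genes. Foxj1, a ciliated cell factor, fell by 1.76 (limma adjusted p 0.00493), a call that held in 9 of 9 fits with 1 array left out, and Lum, a fibroblast proteoglycan, fell by 1.40 (adjusted p 0.0425), which held in 1 of 9. The part of neutrophil genes in the differences of the 8 genes was not tested. With the T cell identity score as a covariate, Foxp3, Tnfrsf4, Il10 and Capg were called against SD-101+anti-PD-1, at differences of 0.65, 1.20, 0.67 and 0.76 and limma adjusted p of 0.0129, 0.00443, 0.0313 and 0.0492. With macrophage, endothelial, lung epithelial and B cell scores as 4 covariates the differences were 0.65, 1.88, 0.74 and 0.42, with limma adjusted p of 0.66, 0.415, 0.75 and 0.979. In that fit 0 of the 17097 genes were called, and 6.5% of all genes and 4 of the 8 had an unadjusted p under 0.05.

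**Figure D4:**
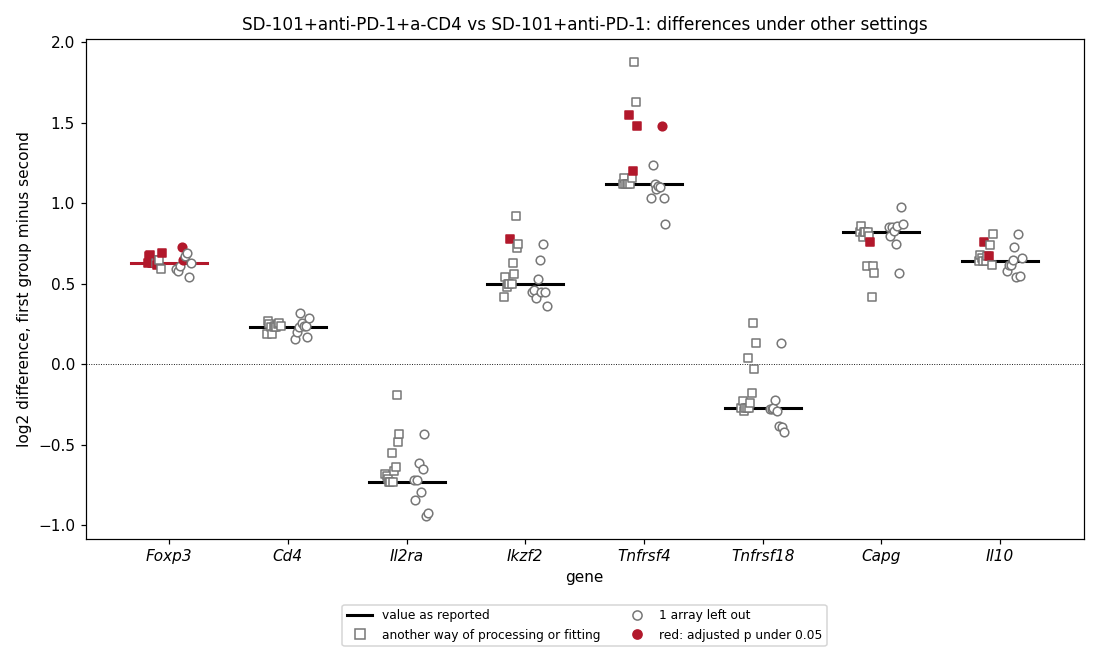
Log2 difference (y axis) between SD-101+anti-PD-1+a-CD4 and SD-101+anti-PD-1 for each gene (x axis), with the reported value as a bar, other ways of processing or fitting as squares and 1 array left out as circles, red where limma's adjusted p was under 0.05. Foxp3 stays between 0.54 and 0.73, while Tnfrsf18 lies on both sides of 0.

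Other genes of the same programmes were read from lists. Of 28 measured genes also linked to regulatory T cells, 1 rose and 1 fell in the SD-101+anti-PD-1+a-CD4 group against SD-101+anti-PD-1, where 0.948% of all genes rose and 1.18% fell, and 9 had an unadjusted p under 0.05, against 17.9% of all genes, the list's median being 0.12. Penk, the enkephalin precursor, rose, with 7.46, 6.67, 6.18 and 8.36 in the SD-101+anti-PD-1+a-CD4 group against 4.97, 6.49, 4.92, 5.25 and 5.01 in SD-101+anti-PD-1. That is a log2 difference of 1.84 (limma adjusted p 0.0178), with 3 arrays above all of SD-101+anti-PD-1. The zinc finger gene Plagl1 fell by 1.61 (limma adjusted p 0.038), with 7.12, 5.94, 7.82 and 7.69 in the SD-101+anti-PD-1+a-CD4 group against 9.12, 8.77, 8.44, 8.87 and 8.57 in SD-101+anti-PD-1. Leaving out each of the 9 arrays in turn kept the Penk call in 6, losing it without replicate 1 or 4 of SD-101+anti-PD-1 or replicate 1 of the SD-101+anti-PD-1+a-CD4 group, and the Plagl1 call in 2, without replicate 3 or 4 of the SD-101+anti-PD-1+a-CD4 group, and Plagl1 differed by -1.21 (adjusted p 0.151) without replicate 2 of the SD-101+anti-PD-1+a-CD4 group.

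Of 21 cofactors of Foxp3 and relatives of Helios, 0 rose and 1 fell, against 0.948% and 1.18% of all genes. At an unadjusted p under 0.05 there were 8, against 17.9% of all genes, and the median was -0.06, against 0.002 over all genes. Bach2, a repressor that restrains effector differentiation, had values of 6.16, 5.55, 6.98 and 6.72 in the SD-101+anti-PD-1+a-CD4 group, against 7.30, 7.17, 7.21, 7.59 and 7.91 in SD-101+anti-PD-1. The groups did not overlap, the difference was -1.08 (limma adjusted p 0.0403), and the call held in 3 of 9 fits with 1 array left out, those without replicate 2 of SD-101+anti-PD-1 or replicate 3 or 4 of the SD-101+anti-PD-1+a-CD4 group. Of 16 IL-2 receptor partners and STAT5 targets, 1 rose (0.948% of all genes) and 0 fell, 5 had an unadjusted p under 0.05 (17.9% of all genes), and the median was -0.10. Il15ra, which presents IL-15, had values of 7.08, 7.24, 7.24 and 6.94 in the SD-101+anti-PD-1+a-CD4 group, against 6.42, 6.36, 6.52, 5.76 and 6.54 in SD-101+anti-PD-1, and again the groups did not overlap. It rose by 0.81 (limma adjusted p 0.0207), and the call held in 6 of 9 such fits, being lost without replicate 4 of SD-101+anti-PD-1 or replicate 1 or 2 of the SD-101+anti-PD-1+a-CD4 group.

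Of 10 actin capping and gelsolin relatives of Capg, 1 rose (0.948% of all genes) and 0 fell, 3 had an unadjusted p under 0.05 (17.9% of all genes), and the median was -0.03. Scin, which severs actin filaments, had values of 4.93, 5.74, 4.74 and 4.98 in the SD-101+anti-PD-1+a-CD4 group, against 3.99, 4.36, 3.84, 4.03 and 3.79 in SD-101+anti-PD-1, and rose by 1.10 (limma adjusted p 0.0357). Its call held in 2 of 9 such fits, without replicate 2 of SD-101+anti-PD-1 or replicate 3 of the SD-101+anti-PD-1+a-CD4 group, and Scin averaged 5.41 in SD-101. Without replicate 2 of the SD-101+anti-PD-1+a-CD4 group, Bach2 differed by -0.82 (adjusted p 0.158) and Il15ra by 0.77 (adjusted p 0.0739). In that fit Scin differed by 0.88 (limma adjusted p 0.145), Lum by -1.19 (0.163) and Penk, still called, by 2.0 (0.0371).

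The helper T cell, TNF and IL-10 lists held no called gene in this comparison, in which 2.13% of all genes were called and 17.9% had an unadjusted p under 0.05. Of 24 helper T cell genes, 0 were called by limma and 1 had an unadjusted p under 0.05, with Il5, a type 2 cytokine gene, at 3.45 ± 0.40 in the SD-101+anti-PD-1+a-CD4 group and 4.63 ± 0.43 in SD-101+anti-PD-1 (SD, n = 4 and 5, limma adjusted p 0.0937). Of 18 TNF ligands, receptors and adaptors beside OX40 and GITR, 0 were called and 3 had an unadjusted p under 0.05, among them Nfkb2, with a mean of 7.14 in the SD-101+anti-PD-1+a-CD4 group and 6.75 in SD-101+anti-PD-1. Of 12 IL-10 pathway genes, 0 were called and 1 had an unadjusted p under 0.05, that being the receptor chain gene Il10rb, with a mean of 8.52 in the SD-101+anti-PD-1+a-CD4 group and 9.02 in SD-101+anti-PD-1. Their medians were -0.07, -0.07 and 0.01.

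Genes whose values followed each member most closely over the 20 arrays were taken by Pearson correlation with no test, and arrays share their group and their cell makeup. For Foxp3 they were H2az2 (0.82), Cdh17 (0.79), Epha6 (0.78), Med14 (0.78) and Sapcd2 (0.77). Of these, Cdh17 and Epha6 averaged 2.84 and 2.82, below the background level. In the SD-101+anti-PD-1+a-CD4 group against SD-101+anti-PD-1 they differed by 0.65 and 0.28 (limma adjusted p 0.0178 and 0.159). H2az2, Med14 and Sapcd2 averaged 9.92, 7.17 and 3.82, above the background level. In the same comparison they differed by 0.28, 0.59 and 1.29 (limma adjusted p 0.0743, 0.0234 and 0.00603). For Il2ra they were Aven (0.92), Serpini1 (0.90) and Klk8 (0.90), for Tnfrsf18 Dctn6 (0.92), Arhgap15 (0.91) and Plcl2 (0.90), and for Tnfrsf4 Stk32c (0.85), Tstd3 (0.84) and Racgap1 (0.84). Capg was followed most closely by Cd44 (0.92), the adhesion receptor used in the purification, then by Aprt (0.91) and Aurka (0.89). Ikzf2 was followed by Vps54 (0.84), Ppp3cb (0.84) and Aebp2 (0.83), Il10 by Alg10b (0.78), Vps54 (0.78) and Rpap2 (0.77), and Cd4 by Obox6 (0.67), Brsk2 (0.66) and Slc1a7 (0.64), of which Obox6 and Brsk2 averaged 2.50 and 2.77, below the background level.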

How the data were processed

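RNA of 20 samples was hybridised to Affymetrix arrays, and the values the authors deposited are on the log2 scale, 1 for each probe set. Per the submitters' processing notes, affy, RMA and limma were used and the build mm8 was named, with no versions or order. The values, from 1.78 to 13.44 with array medians of 3.52 to 3.75, were used as deposited. Arrays carry no read depth, and the number of arrays limits the precision.

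Of 45141 probe sets, 28898 were listed with 1 gene symbol in the platform annotation and 551, listed with several, were not used. RefSeq matched 28689 by Entrez identifier and changed 0 symbols. The probe set of highest mean was taken per gene, giving 17097 genes, none removed for a low level.

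A limma model (version 3.58.1, R 4.3.3) held group means alone for the 4 groups at once, and contrasts were tested 2-sided with Benjamini-Hochberg adjustment over all genes. The fit was checked on simulated data. Exact permutation tests were 2-sided and compared the difference of means over every split of the arrays of 2 groups. Their Benjamini-Hochberg adjustment used scipy 1.17.1. Correlations used 100000 permutations within groups.

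The 8 genes, the gene lists and the tests were chosen with earlier results of these data known. Named genes were the 8, the called genes of each list (otherwise up to 4 of smallest p), the sort genes, and the 3 genes most correlated with each member, 5 for Foxp3. Alternatives changed probe sets, scaling, level filter, variance model, weights, groups fitted, replicate block, cell type covariates and each array in turn. A fit without the 2 arrays whose T cell score was lowest, and one with 5 scores as covariates, were added after seeing the data. No Y-linked gene, nor Xist, is reported.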

Additional observations from a re-analysis of the deposited data

Results flagged for a closer look

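Each of the 8 genes was checked in each group for a lone array, one whose gap to its nearest neighbour takes up most of the group's range. Of 32 such sets of arrays 5 held one, and by chance about 5% of sets would.

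Tnfrsf18 read 6.98 on replicate 2 of the SD-101+anti-PD-1+a-CD4 group, against 8.5 to 8.63 on the other arrays of that group, and this was the array of lowest T cell identity score. Tnfrsf18 read 8.63 on replicate 4 of SD-101+anti-PD-1, against 8.35 to 8.42 on the others. Tnfrsf4 read 4.95 on replicate 2 of SD-101, against 5.93 to 6.25 on the others, and 4.90 on replicate 1 of Saline-CTRL, against 5.53 to 5.66. Both of these arrays had the lowest T cell identity score of their group, 9.26 and 8.83. Ikzf2 read 7.68 on replicate 5 of Saline-CTRL, against 6.96 to 7.14 on the others, and that array had the highest T cell identity score of its group, 10.23.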

How the results depend on the processing

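In the SD-101+anti-PD-1+a-CD4 group against SD-101+anti-PD-1, 1 of the 8 genes was called as reported. The count was 4 with array weights, 4 with the T cell identity score as a covariate, 2 without the 2 arrays of lowest score, 0 with only the 2 groups in the fit, 0 with 4 other cell type scores and 0 with all 5 scores (at an unadjusted p under 0.05, 5, 4 and 4 of the 8 by limma), and 0 to 1 with 1 array left out. All genes called, 364 as reported, were 1246, 850 and 62 under the first 3 of these settings in that order. With only the 2 groups they were 341. They were 0 with 4 and 0 with 5 scores, and 73 to 488 with 1 array left out. At an unadjusted p under 0.05 by limma there were 3100 with only the 2 groups, 1111 with 4 scores and 1756 with 5. Against SD-101, the count of 0 became 1 among genes above the median level, 2 with array weights, 1 with the replicate block, 2 with the T cell identity score and 1 without the 2 arrays of lowest score, and stayed 0 with any 1 array left out. All genes called, 168 as reported, were 272 (of 10770 fitted), 603, 250, 628 and 51 under these 5 settings in that order. With 1 array left out they were 35 to 220. Against Saline-CTRL, the count of 4 became 0 with only the 2 groups, 0 with 4 and 0 with 5 scores (5, 1 and 5 at an unadjusted p under 0.05), and 2 to 4 with 1 array left out. All genes called there, 1218 as reported, were 476, 11 and 395 under the first 3 of these settings in that order. At an unadjusted p under 0.05 by limma there were 2831, 2121 and 3418. With 1 array left out, 665 to 1234 genes were called. The cause of these shifts was not tested, beyond fewer arrays in fits that leave some out.

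Tnfrsf18 alone turned its sign. Against SD-101+anti-PD-1 it differed by 0.04 with array weights, 0.26 with 4 scores, 0.13 without the 2 arrays of lowest score and -0.42 to 0.13 with 1 array left out. Against SD-101 it differed by 0.04, 0.24 and 0.20 under the same settings, by 0.10 with 5 scores, and by -0.35 to 0.20 with 1 array left out. Against Saline-CTRL it differed by -0.46 to 0.09 with 1 array left out. Of 24 differences among the groups without a-CD4, 18 took the other sign under some alternative and 0 were called under any.

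Arrays of the same number were not paired by the labels, and their deviations correlated at -0.391 to 0.515. With the replicate block, Foxp3 differed by 0.62 against SD-101+anti-PD-1 (limma adjusted p 0.0305), and all genes called were 242.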
